A study of Mus musculus with 12 samples.

Results

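The 38 genes described here encode the subunits of voltage-gated calcium and sodium channels, picked by symbol from the 24458 rows of the expression table. They comprised 26 calcium channel genes (Cacna1, Cacna2d, Cacnb and Cacng) and 12 sodium channel genes (Scn), and none shared its symbol with another row. RNA was measured in 12 libraries of 4 untreated mouse small-cell lung cancer (SCLC) lines. The study's data statement lists this deposit as SMC carrying a control or a mutant TAZ, but the sample labels name SMC and Non-SMC, and groups were taken from the labels. All lines derived from the RP model, in which Rb1L/L and Trp53L/L mice of mixed background received Cre adenovirus under the ubiquitous CMV promoter in the trachea, so Rb1 and Trp53 were deleted in both groups. SMC#1 and SMC#2, the SCLC metastasizing cells, were sorted for high NCAM with little or no CD44 and grew as floating spheres. Non-SMC#1 and Non-SMC#2 were sorted for low NCAM with high CD44 and grew attached. Each line had 3 libraries, giving 6 per group, and pair 1 and pair 2 carry the numbers of the labels. Only 2 lines stood behind each group, and nothing states that the libraries of a line were separate cultures, so p-values measure the spread between libraries, which may be technical.

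Values were FPKM, fragment counts divided by transcript length and by the fragments mapped in that library, so levels can be compared between genes. An estimated 24600000 to 38900000 fragments were mapped per library, from the spacing of low values, which is approximate. A single fragment corresponded to between 0.00225 and 0.0269 FPKM for these genes. Values of exactly 0 are given as listed at 0, since 4 of 77 ribosomal protein rows were also listed at 0 in every library. The 8 neuroendocrine marker genes summed to between 1176 and 1575 FPKM in SMC and between 0.520 and 1.54 in Non-SMC. Cd44 RNA followed the sort, at 0.0760 to 0.229 FPKM in SMC and 76.0 to 88.5 in Non-SMC, whereas Ncam1 RNA went against it, at 32.1 to 37.6 in SMC and 41.0 to 52.6 in Non-SMC. The sort used antibodies to the surface proteins, which these RNA values do not measure. Of 11 muscle markers only Tnnt2 passed the filter on low values, at 4.83 to 90.1 FPKM in Non-SMC, and Myog was listed at 0 in every library. The 7 neuron markers summed to 53.1 to 123 FPKM in SMC and 0.187 to 1.28 in Non-SMC, with Gad2 and Slc17a6 listed at 0 in SMC. The 6 fibroblast markers summed to 0.592 to 3.999 and 392.5 to 1294. The 4 epithelial markers summed to 460.4 to 765 FPKM in SMC, 0.788 to 1.38 in Non-SMC#1 and 463 to 528 in Non-SMC#2, so they also set the Non-SMC lines apart. The part of these differences in the results was not tested.

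A voltage-gated calcium channel is built around a pore-forming alpha1 subunit, which opens when the membrane depolarizes and lets calcium enter. Cytoplasmic beta subunits and extracellular alpha2-delta subunits bring the pore to the membrane and tune its gating, and some proteins of the gamma family instead accompany AMPA-type glutamate receptors. A voltage-gated sodium channel has an alpha subunit, which carries the inward current of the action potential, and beta subunits that modulate it and mediate cell adhesion. Neuroendocrine cells, the cells SCLC resembles, are electrically excitable and release their vesicles when calcium enters.

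More channel genes were expressed in the SMC lines than in the Non-SMC lines. At a line mean of at least 1 FPKM stood 19 genes in SMC#1, 16 in SMC#2, 5 in Non-SMC#1 and 7 in Non-SMC#2. Rows of the whole table were counted per library rather than by line mean. Of all 24458 rows, 11354 to 11536 reached 1 FPKM in an SMC library and 10794 to 11141 in a Non-SMC library. Of the 38 genes, 21 passed the filter of at least 1 FPKM in at least 3 libraries and 17 did not, among them Cacng6, Scn10a, Scn2b and Scn4b, which were listed at 0 in all 12 libraries. Of these 21, 15 passed it through libraries of 1 group only, so that a difference was built into their passing. That group was Non-SMC for Cacna1g and Cacng7. It was SMC for Cacna1b, Cacna1d, Cacna1e, Cacna1h, Cacna2d2, Cacna2d3, Cacnb4, Cacng2, Cacng4, Scn2a1, Scn3a, Scn8a and Scn9a. Counts and the median over the 21 genes include these genes. With limma on log2(FPKM + 1), 16 genes were higher in SMC at an adjusted p under 0.05, where 44.7% of all 13122 rows tested were, and 3, Cacna1g, Cacnb3 and Cacng7, were lower, where 42.4% were. At a log2 difference of at least 1, 13 genes were higher (18.0% of all rows) and 1, Cacng7, was lower (17.3%). Over all 38 genes, every SMC library lay above every Non-SMC library for 17 genes (18.0% of all 24458 rows) and below for 2, Cacna1g and Cacng7 (15.8%). The median log2 difference was 1.17 over the 21 genes and 0.02 over all rows tested. With the line as the unit of replication, 7 of the genes were called (18.6% of all rows under that fit) in place of 19 (87.1% in the main test). They were Cacna1a, Cacna1b, Cacna1h, Cacna2d3, Cacng4, Scn8a and Scn9a, each higher in SMC. All of them but Cacna1a had passed the filter through SMC libraries alone, so their direction was built in.

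**Figure D1:**
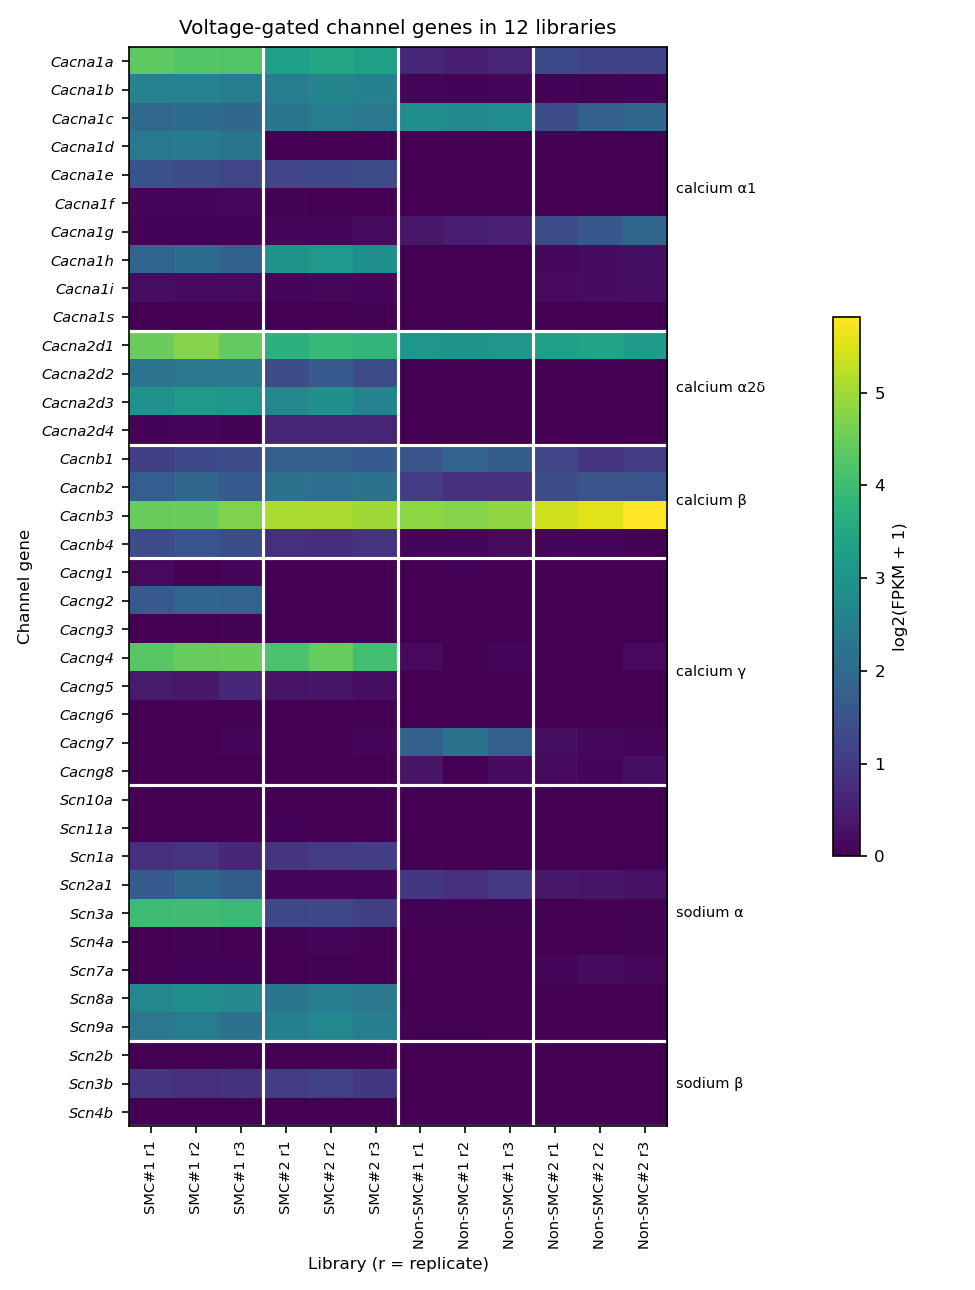
Level of the 38 channel genes (rows, grouped by subunit class) in the 12 libraries (columns, 3 per line), as log2(FPKM + 1). Cacna1a, Cacng4, Scn8a and Scn9a are brighter in both SMC lines than in Non-SMC, Scn3a is bright in SMC#1, and Cacnb3 is bright in all 12.

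As examples, the 250 bases before the start site are shown for 3 genes higher in SMC in both pairs and for Cacng7, which was higher in Non-SMC#1. The RefSeq table held 41 windows for 30 of the 38 genes (GRCm38.p6, Scn2a1 listed as Scn2a). It held no entry for Cacna1a, Cacna1g, Cacna1h, Cacna2d4, Cacng1, Cacng4, Scn3a and Scn3b. Both strands were searched for CAGCTG, an E-box hexamer, and for GGAATG, a hexamer of TEAD-type sites, which do not overlap each other in the windows printed. CAGCTG was in 11 of the 41 windows (26.8%) and in 13.0% of all 32851 windows of that length, and GGAATG was in 9 (22.0%) and in 12.6%. A match is a description of letters and not a binding site. The windows are Cacna1b on the minus strand at chr2:24763153-24763402, Cacna2d3 on the minus strand at chr14:29721865-29722114, Scn9a on the minus strand at chr2:66634963-66635212 and Cacng7 on the plus strand at chr7:3332575-3332824. They are written from 5′ to 3′ with matches in capitals.
Cacna1b: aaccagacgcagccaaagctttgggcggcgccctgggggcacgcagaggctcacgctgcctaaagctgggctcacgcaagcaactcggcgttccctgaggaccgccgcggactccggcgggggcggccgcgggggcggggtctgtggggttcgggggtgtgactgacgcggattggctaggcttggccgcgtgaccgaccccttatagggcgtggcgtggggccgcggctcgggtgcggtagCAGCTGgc
Cacna2d3: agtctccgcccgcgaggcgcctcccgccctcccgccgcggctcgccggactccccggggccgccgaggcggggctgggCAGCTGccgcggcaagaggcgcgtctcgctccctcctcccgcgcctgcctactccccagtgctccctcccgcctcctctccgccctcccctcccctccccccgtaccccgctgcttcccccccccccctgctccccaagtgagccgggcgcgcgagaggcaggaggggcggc
Scn9a: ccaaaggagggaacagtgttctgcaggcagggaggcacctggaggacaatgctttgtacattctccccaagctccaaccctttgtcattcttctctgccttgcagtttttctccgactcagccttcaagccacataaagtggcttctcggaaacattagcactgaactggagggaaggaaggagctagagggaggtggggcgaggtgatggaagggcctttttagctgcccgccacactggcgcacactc
Cacng7: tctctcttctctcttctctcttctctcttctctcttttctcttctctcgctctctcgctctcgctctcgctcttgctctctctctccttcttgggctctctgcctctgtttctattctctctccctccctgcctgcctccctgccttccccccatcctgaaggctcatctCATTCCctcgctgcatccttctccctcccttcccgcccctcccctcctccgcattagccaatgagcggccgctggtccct

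Cacna1b and Cacna2d3 each held 1 E-box hexamer, Cacng7 held 1 TEAD-type hexamer on the reverse strand, and Scn9a held neither. Their GC content was 72.0% in Cacna1b, 80.0% in Cacna2d3, 54.4% in Scn9a and 58.0% in Cacng7, beside a median of 56.8% over the 41 windows and 52.4% over all windows. Among windows not printed, GGAATG was in those of Cacna1e and Cacna2d2, which were higher in SMC, and in a window of Scn2a1, whose pairs went in opposite directions. It was also in those of Cacna1s, Cacng3, Cacng6, Scn7a and Scn10a, which did not pass the filter. CAGCTG was in windows of Cacnb2, Cacnb4, Cacna1d and Cacng2, called higher in SMC, and of Cacna1s, Cacng3, Scn7a and Scn11a, which did not pass the filter. The windows of Scn8a and Cacna2d1 held neither. A link between the hexamers and expression was not tested.

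Of the pore-forming calcium channel genes, Cacna1a, Cacna1b, Cacna1e and Cacna1h, which is described below, were higher in every SMC library than in any Non-SMC library. Cacna1a, the P/Q-type pore of presynaptic terminals (chr8:86939263-87164148, mm9 here and below), was at 19.6, 18.1 and 17.8 FPKM in SMC#1, at 8.74, 10.3 and 8.93 in SMC#2, at 0.557, 0.430 and 0.538 in Non-SMC#1 and at 1.49, 1.30 and 1.27 in Non-SMC#2. The groups did not overlap, and all 4 lines were separate from each other. The difference was 2.91 ± 0.05 on the log2 scale (SE, limma adjusted p = 8.41e-15). Cacna1b, the N-type pore of nerve terminals (chr2:24459409-24618672), was at 5.00, 4.97 and 4.45 FPKM in SMC#1, at 4.55, 5.29 and 4.92 in SMC#2 and at no more than 0.0552 in any Non-SMC library. The libraries of the SMC lines overlapped, and the log2 difference was 2.49 ± 0.04 (limma adjusted p = 4.58e-15). Cacna1e, the R-type pore (chr1:156239649-156573050), was lower, at 1.74, 1.53 and 1.32 FPKM in SMC#1, 1.32, 1.43 and 1.54 in SMC#2 and at most 0.00274 in Non-SMC. Its log2 difference was 1.31 ± 0.04 (limma adjusted p = 3.98e-12; 0.146 with the line as the unit).

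The L-type pore genes, which serve contraction, secretion and calcium signals to the nucleus, did not share a pattern. Cacna1c (chr6:118537258-119146427) was at 3.02, 3.19 and 2.87 FPKM in SMC#1, 3.79, 4.53 and 4.01 in SMC#2, 6.19, 5.74 and 6.06 in Non-SMC#1 and 1.62, 2.46 and 2.85 in Non-SMC#2. Non-SMC#1 was the highest line and Non-SMC#2 the lowest. Over both pairs the log2 difference was -0.08 ± 0.08 (limma adjusted p = 0.385), while it was -0.80 in pair 1 and 0.64 in pair 2. Over both pairs it passed without Non-SMC#2 replicate 1 (-0.16, adjusted p = 0.0129) and after quantile normalization (-0.21, adjusted p = 0.0205). Cacna1d, the L-type pore of pacemaking and hormone-secreting cells (chr14:30853125-31304342), was at 4.12, 4.37 and 3.81 FPKM in SMC#1 and listed at 0 in the other 9 libraries. It was above 0 in a single line, and the call over both pairs did not hold with lines as units (adjusted p = 0.328). Its exons overlap the antisense gene Chdh, at 0.349 to 0.620 FPKM in SMC#1 and at most 0.0150 elsewhere, and no strand setting is given in the sources used here. Cacna1f and Cacna1s, the L-type pores of photoreceptors and of skeletal muscle, reached at most 0.0924 and 0.0189 FPKM.

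The T-type pores, which open at small depolarizations, went in opposite directions. Cacna1h (chr17:25511232-25570728) was at 2.65, 3.13 and 2.49 FPKM in SMC#1, 6.78, 7.79 and 6.40 in SMC#2, and at most 0.181 in Non-SMC. Its level in SMC#2 was 2.54 times that in SMC#1, and its log2 difference between groups was 2.36 ± 0.05 (limma adjusted p = 9.76e-14). Cacna1g (chr11:94269705-94335512) was at 0.0376 to 0.118 FPKM in SMC, at 0.307, 0.380 and 0.450 in Non-SMC#1 and at 1.49, 2.05 and 2.78 in Non-SMC#2. Every Non-SMC library was above every SMC library, with a log2 difference of -0.95 ± 0.08 (limma adjusted p = 8.06e-08; 0.297 with the line as the unit). Cacna1i, the T-type pore of thalamic neurons, stayed at or under 0.187 FPKM.

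All 4 alpha2-delta genes were above Non-SMC in every SMC library. Cacna2d1, a subunit bound by the drug gabapentin (chr5:15440509-15880329), was at 21.4, 25.9 and 20.2 FPKM in SMC#1, 12.05, 14.0 and 13.1 in SMC#2, 7.28, 6.91 and 7.41 in Non-SMC#1 and 8.84, 9.59 and 8.20 in Non-SMC#2. It was the alpha2-delta gene that Non-SMC also expressed, the SMC mean being 2.21 times the Non-SMC mean, with a log2 difference of 1.01 ± 0.06 (limma adjusted p = 5.60e-09; 0.117 with the line as the unit). Cacna2d3 (chr14:29718129-30535050) was at 6.96, 7.92 and 7.50 FPKM in SMC#1, 5.53, 6.60 and 5.13 in SMC#2 while each of the 6 Non-SMC libraries listed it at 0, with a log2 difference of 2.91 ± 0.05 (limma adjusted p = 9.16e-15). Cacna2d2 (chr9:107302211-107431674) was at 3.64, 3.99 and 3.94 FPKM in SMC#1, 1.64, 2.16 and 1.57 in SMC#2 and at most 0.00889 in Non-SMC. Its log2 difference was 1.87 ± 0.05 (limma adjusted p = 4.73e-13; 0.0755 with the line and the pair in the model). Cacna2d4 did not pass the filter, at 0.513 to 0.528 FPKM in SMC#2, 0.0243 to 0.0801 in SMC#1 and at most 0.00618 in Non-SMC.

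The beta subunit genes encode proteins that bind the alpha1 pore inside the cell, and 1 of them, Cacnb3, was expressed in all 4 lines at over 20 FPKM. Cacnb3 (chr15:98462759-98474967) was at 21.0, 21.3 and 24.7 FPKM in SMC#1, 33.1, 33.5 and 30.9 in SMC#2, 27.2, 26.1 and 27.6 in Non-SMC#1 and 41.4, 45.5 and 55.3 in Non-SMC#2. The groups overlapped, because SMC#2 was above Non-SMC#1, and the log2 difference was -0.39 ± 0.07 (limma adjusted p = 0.000141; 0.236 with the line as the unit). Cacnb2 (chr2:14525933-14909535) was at 2.34, 2.78 and 2.11 FPKM in SMC#1, 3.56, 3.24 and 3.51 in SMC#2, 1.06, 0.730 and 0.776 in Non-SMC#1 and 1.58, 1.80 and 1.84 in Non-SMC#2. The groups did not overlap, and the log2 difference was 0.79 ± 0.06 (limma adjusted p = 4.17e-08; 0.187 with the line as the unit). Cacnb4 (chr2:52283840-52532128) was at 1.58, 1.88 and 1.63 FPKM in SMC#1, 0.739, 0.656 and 0.841 in SMC#2 and at most 0.108 in Non-SMC, a log2 difference of 1.03 ± 0.04 (limma adjusted p = 3.26e-11; 0.233 with the line as the unit). Cacnb1, the partner of the skeletal muscle pore (chr11:97862822-97883941), was at 1.16, 1.44 and 1.58 FPKM in SMC#1, 2.40, 2.37 and 2.11 in SMC#2, 1.90, 2.61 and 2.27 in Non-SMC#1 and 1.31, 0.871 and 1.07 in Non-SMC#2. It was lower in SMC in pair 1 and higher in pair 2, and did not pass the test over both (log2 difference 0.11 ± 0.07, limma adjusted p = 0.151).

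Among the gamma genes, Cacng4, which encodes an AMPA receptor partner (chr11:107596094-107655778), had the largest log2 difference of the 21 genes, 4.26 ± 0.07 (limma adjusted p = 2.01e-15). It was at 18.9, 21.2 and 21.3 FPKM in SMC#1, 16.9, 20.7 and 15.7 in SMC#2 and at most 0.109 in Non-SMC, and the libraries of the SMC lines overlapped. Cacng2, which encodes stargazin (chr15:77824053-77949710), was at 2.07, 2.71 and 2.54 FPKM in SMC#1 and at most 0.00868 in the other 9 libraries, and its call over both pairs did not hold with lines as units (adjusted p = 0.393). Like Cacna1d, it reached 1 FPKM in SMC#1 alone. Cacng7, another AMPA receptor partner (chr7:3336685-3366537), was at 2.42, 3.54 and 2.40 FPKM in Non-SMC#1 but only 0.166, 0.0983 and 0.0729 in Non-SMC#2 and at most 0.0579 in SMC. Its log2 difference was -1.003 ± 0.066 over both pairs (limma adjusted p = 7.58e-09; 0.337 with the line as the unit), and pair 2 did not pass the test (-0.13, adjusted p = 0.227) but did at a pseudocount of 0.1 (-0.84, adjusted p = 0.00717). Cacng5 was at 0.177 to 0.557 FPKM in SMC, Non-SMC listed it at 0, and Cacng1, Cacng3 and Cacng8 reached at most 0.111, 0.0226 and 0.244 FPKM.

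**Figure D2:**
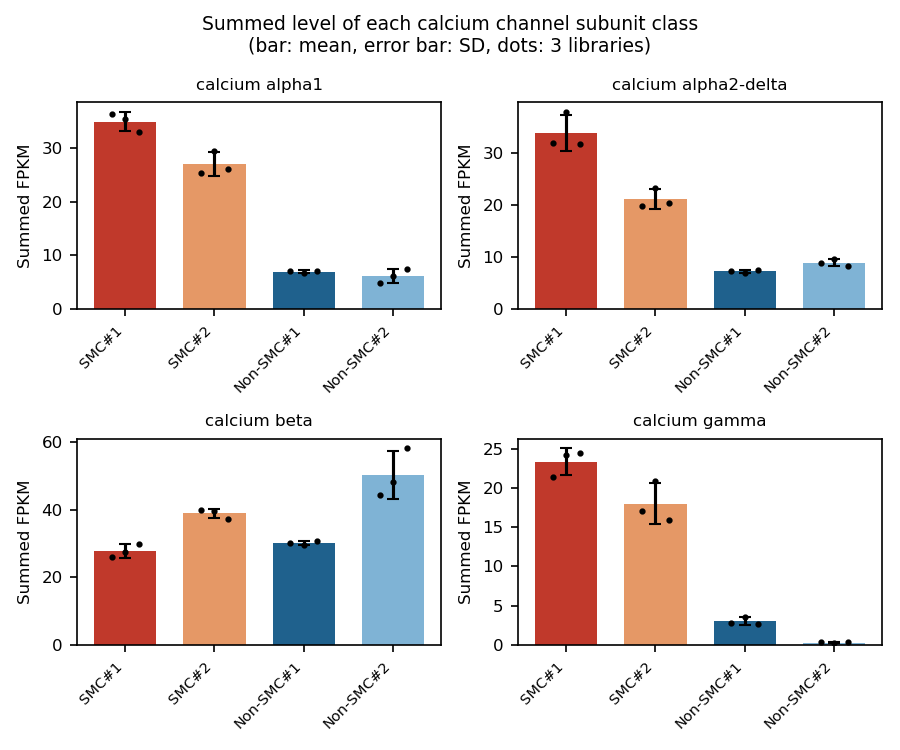
Summed FPKM of the calcium channel genes of each subunit class in each line (bars: mean of 3 libraries, error bars: SD, dots: libraries). The alpha1 sum is 34.9 and 27.0 in the SMC lines and 6.94 and 6.09 in the Non-SMC lines, and the beta sum is high in all 4 lines.

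Among the sodium channel genes, Scn8a and Scn9a were above 3 FPKM in every SMC library and near 0 in Non-SMC, whereas Scn3a was high in SMC#1 alone. Scn8a, a sodium channel of axon initial segments (chr15:100701076-100876369), was at 5.52, 6.31 and 5.64 FPKM in SMC#1, 3.84, 4.61 and 3.93 in SMC#2 and at most 0.00311 in Non-SMC. Its log2 difference was 2.56 ± 0.05 (limma adjusted p = 8.67e-15). Scn9a, a sodium channel of pain-sensing neurons (chr2:66318138-66473019), was at 3.93, 4.46 and 3.51 FPKM in SMC#1, 4.69, 5.51 and 4.60 in SMC#2 and at most 0.0286 in Non-SMC, a log2 difference of 2.42 ± 0.05 (limma adjusted p = 5.78e-14). Its exons overlap the antisense gene Gm13629, at 0.242 to 0.813 FPKM in SMC, with 0 listed in Non-SMC, and the strand setting is not given. Of the 38 genes, 10 have exons that overlap an antisense gene. Besides Cacna1d and Scn9a these are Cacna1a, Cacna1h, Cacna1s, Cacna2d2, Cacnb1, Cacnb2, Cacnb4 and Cacng2. Tpsg1, which overlaps Cacna1h, was listed at 0 in every library.

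Scn3a, a sodium channel of the embryonic brain (chr2:65295175-65405549), set the SMC lines apart from each other. It was at 15.1, 15.3 and 14.4 FPKM in SMC#1, 1.35, 1.43 and 1.15 in SMC#2 and at most 0.0258 in Non-SMC. SMC#1 was 11.4 times SMC#2, and the log2 difference between groups was 2.57 ± 0.04 (limma adjusted p = 1.61e-15; 0.107 with the line as the unit). Scn2a1, a sodium channel of brain axons (chr2:65508502-65605504), was at 2.24, 2.91 and 2.30 FPKM in SMC#1, 0.0523, 0.0615 and 0.0617 in SMC#2, 0.909, 0.723 and 0.940 in Non-SMC#1 and 0.306, 0.273 and 0.202 in Non-SMC#2. SMC#1 was the highest line and SMC#2 the lowest. The log2 difference of 0.33 ± 0.05 over both pairs (limma adjusted p = 6.07e-05) was lost at a pseudocount of 0.1 (adjusted p = 0.261), after quantile normalization (0.622) and with the line as the unit (0.678).

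Scn1a, a sodium channel of inhibitory neurons (chr2:66108839-66278894), was at 0.732, 0.841 and 0.587 FPKM in SMC#1, 0.836, 1.02 and 1.09 in SMC#2 and at most 0.00569 in Non-SMC, and narrowly missed the filter. Scn7a, which encodes a sodium-sensing channel rather than one opened by voltage, reached 0.148 FPKM, in Non-SMC#2, and Scn4a and Scn11a reached 0.0493 and 0.0334. Scn3b, which encodes a beta subunit (chr9:40076801-40099203), was at 0.842, 0.725 and 0.797 FPKM in SMC#1, 1.04, 1.18 and 0.909 in SMC#2 and at most 0.00793 in Non-SMC, without passing the filter.

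The calcium channel pore genes differed in makeup as well as in amount. The calcium alpha1 sum was 34.9 ± 1.76 FPKM in SMC#1, 27.0 ± 2.24 in SMC#2, 6.94 ± 0.292 in Non-SMC#1 and 6.09 ± 1.24 in Non-SMC#2. Cacna1a held 52.9% of it in SMC#1 and 34.6% in SMC#2, and Cacna1h held 7.88% and 25.9%. In Non-SMC#1, Cacna1c held 86.5%, whereas in Non-SMC#2 it held 37.5% and Cacna1g 34.1%. The sums are descriptions without a test, and in bulk RNA fewer expressing cells and less RNA per cell cannot be told apart.

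Within pair 1, 16 genes were higher in SMC#1 (43.9% of all rows) and 5 were lower (36.5%). Within pair 2, 15 were higher in SMC#2 (39.2%) and 3 were lower (42.8%). Cacna1d, Cacng2 and, at this pseudocount, Cacng7 did not pass the test in pair 2, and Cacna1c, Cacnb1 and Scn2a1 passed in both pairs in opposite directions. The difference between the pairs passed for 11 genes that were higher in pair 1 (38.2%) and 5 that were lower (22.5%), 16 in either direction (60.6%). It was largest for Scn3a, at 2.78 ± 0.08 on the log2 scale (limma adjusted p = 9.83e-12), and lowest for Cacng7, at -1.75 ± 0.13 (limma adjusted p = 1.19e-07). Cacna1b, Cacna1e, Cacnb2, Cacnb3 and Cacng4 did not pass this test, although Cacna1b did after quantile normalization (-0.34, adjusted p = 0.00663, from -0.05). At a pseudocount of 0.1 the calls of Cacna1h (adjusted p = 0.649) and Cacna2d3 (0.0553) were lost, and that of Cacna2d3 also after quantile normalization (0.0794) and median-ratio scaling (0.117).

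**Figure D3:**
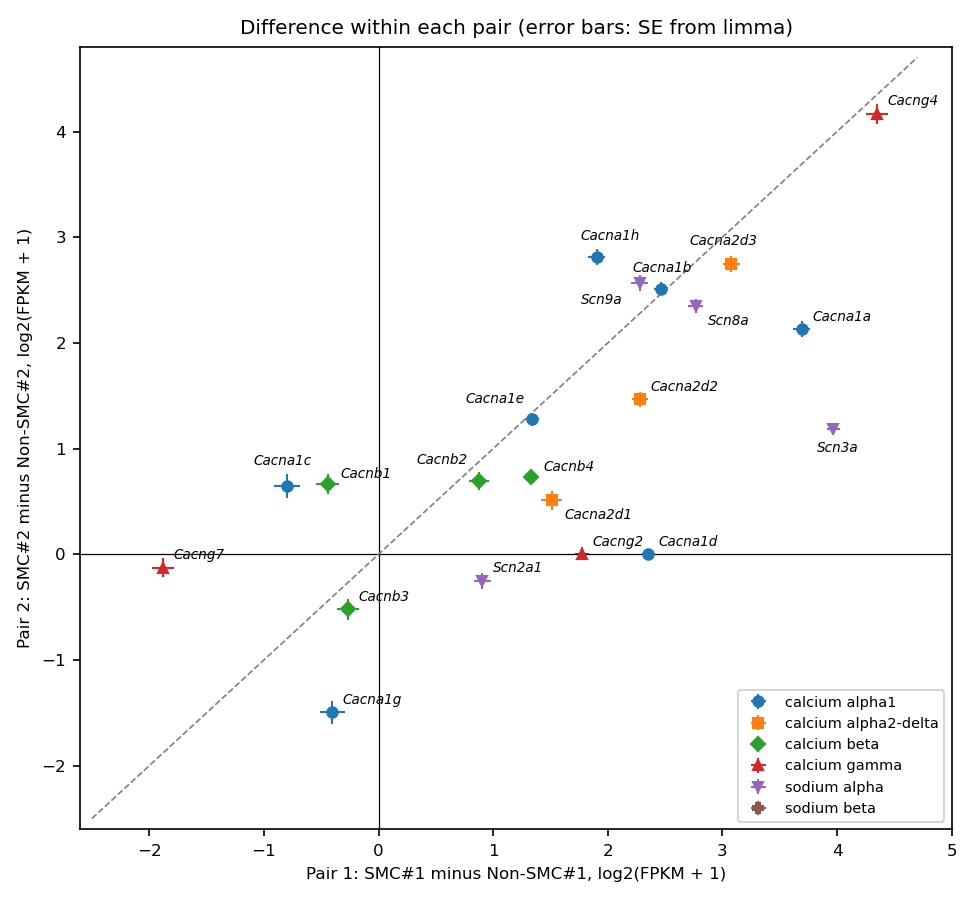
Log2 difference of SMC#1 from Non-SMC#1 (horizontal) and of SMC#2 from Non-SMC#2 (vertical) for the 21 genes tested, with SE from limma as error bars and equality as a dashed line. Cacng4 lies at 4.35 and 4.17, Scn3a at 3.97 and 1.18, and Cacna1c, Cacnb1 and Scn2a1 lie where the pairs have opposite signs.

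Between the SMC lines, 10 genes were higher in SMC#1 (36.2% of all rows) and 6 were higher in SMC#2 (20.6%). At a log2 difference of at least 1, Cacna1d, Cacng2, Scn2a1 and Scn3a were higher in SMC#1 (7.0%) and Cacna1h in SMC#2 (4.45%). Without SMC#1 replicate 3 the 16 calls in either direction (56.8% of all rows) became 10. Cacna1d, Cacnb4, Cacng2 and Scn2a1 reached 1 FPKM in exactly 3 libraries, so leaving out an SMC#1 library removed them from the test. Between the Non-SMC lines, 4 genes were higher in Non-SMC#1 (25.8%) and 5 in Non-SMC#2 (31.5%). Cacna1c and Cacng7 were higher in Non-SMC#1, with log2 differences of 1.10 ± 0.12 (limma adjusted p = 3.39e-06) and 1.75 ± 0.09 (3.87e-09). Cacna1g was higher in Non-SMC#2, with a log2 difference of -1.15 ± 0.11 (1.42e-06).

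Of the 38 genes, 19 lay within 1000 kb of another, in 7 groups of neighbours. Neighbours could differ widely in level. On chromosome 2, Scn3a, Scn2a1, Scn1a, Scn9a and Scn7a lie within 1328 kb, and their highest lines were SMC#1 for Scn3a and Scn2a1, SMC#2 for Scn1a and Scn9a, and Non-SMC#2 for Scn7a, with the SMC lines overlapping for Scn1a. On chromosome 9, Scn2b and Scn4b lie within 36.2 kb, and both were listed at 0 in every library. On chromosome 11, Cacng1 and Cacng5 flank Cacng4 at 18.3 and 80.1 kb and reached 0.111 and 0.557 FPKM, against 21.3 for Cacng4. On chromosome 14, Cacna1d lies 318 kb from Cacna2d3 and was listed at 0 in SMC#2, where Cacna2d3 was at 5.13 to 6.60 FPKM.

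**Figure D4:**
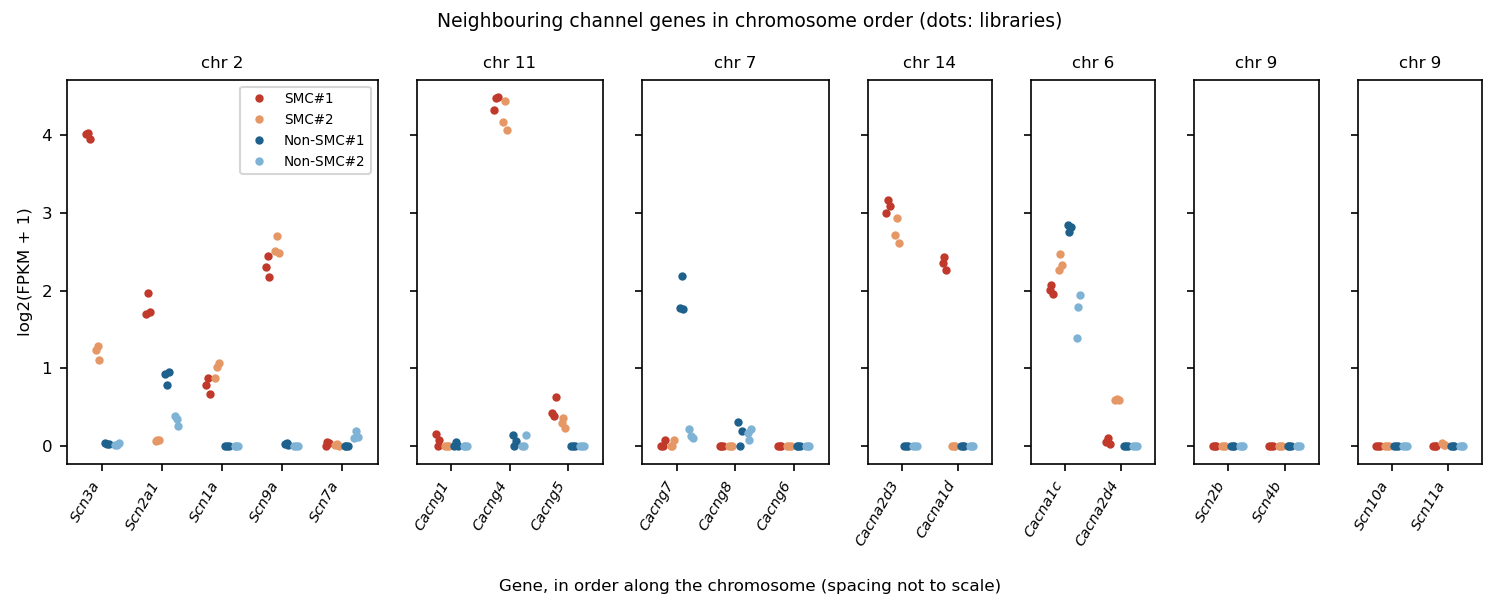
Level of the 19 neighbouring channel genes, as log2(FPKM + 1), in their order along each chromosome (spacing not to scale), with a dot per library coloured by line. Cacng4 stands high in SMC beside neighbours at or near 0.

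Genes that work with the channels were counted from 6 lists, 59 of whose genes were tested, with 33 higher in SMC (44.7% of all rows), 20 lower (42.4%) and 6 not passing the test, and with the line as the unit 26 (18.6% of all rows) in place of 53 (87.1%) were called. The same shares of all rows are the background for each list. Their median log2 difference was 0.44, beside 0.02 over all rows. All 10 other sodium-permeable channel genes tested were higher, with a median of 3.08. Among them Scnn1a, the epithelial sodium channel alpha subunit, was at 17.5 to 69.2 FPKM in SMC and 0.203 to 0.643 in Non-SMC, and Fam155a, a subunit of the sodium leak channel, was at 13.1 to 14.5 and listed at 0. Both passed the filter through SMC libraries alone, so this direction was built into their passing. The rows of that list summed to 88.0 to 178 FPKM in SMC and 2.88 to 4.87 in Non-SMC, so the same may hold for others of the 10. Of 18 adaptors and regulators, 10 were higher, 5 lower and 3 did not pass. Fgf13, which binds sodium channel alpha subunits, was at 36.7 to 149 FPKM in SMC and 0 to 2.52 in Non-SMC, and Cabp1, a calcium sensor of calcium channels, at 26.9 to 37.3 and 0 to 0.532. Ahnak, which binds calcium channel beta subunits, was at 0.0619 to 0.753 and 74.0 to 135, and Stac2, an L-type channel adaptor, at 0 to 0.0687 and 4.98 to 44.3. Cabp1 passed the filter through SMC libraries alone, and Ahnak and Stac2 through Non-SMC libraries alone, so their directions were also built in.

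Of 3 RGK GTPases, which inhibit calcium channels, 1 was higher and 2 were lower. Rrad was at 0 to 0.282 FPKM in SMC and 4.78 to 19.4 in Non-SMC, and Gem at 0.0973 to 0.282 and 2.87 to 6.38. Rem2, the gene that was higher, was at 4.73 to 11.3 FPKM in SMC and 2.29 to 4.30 in Non-SMC. Rrad and Gem passed the filter through Non-SMC libraries alone, so their direction was built into their passing. Of 10 intracellular and store-operated calcium channel genes, 2 were higher and 8 lower, with Itpr3, an inositol trisphosphate receptor, at 3.01 to 4.34 and 14.6 to 42.2 FPKM. Of 12 pumps and exchangers, 8 were higher, 3 lower and 1 did not pass. The calcium pump genes Atp2a3 and Atp2b2 were at 0.791 to 33.4 and 3.23 to 8.66 FPKM in SMC, and at 0.0924 to 0.214 and 0 to 0.0103 in Non-SMC, while Atp2b4 was at 0.0173 to 0.204 and 5.07 to 9.76. Atp2a3 and Atp2b2 passed the filter through SMC libraries alone and Atp2b4 through Non-SMC libraries alone, so these directions were built in as well. Of 6 other calcium-permeable channel genes, 2 were higher, 2 lower and 2 did not pass.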

How the data were processed

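The authors extracted total RNA and sequenced paired-end libraries, and mapped reads with STAR 2.6.1b to mm10, with differential expression by DESeq2. The deposited values are FPKM made by the authors, 1 column per library, with replicates kept apart. Which tool computed them is not stated in the sources. Positions in the table are those of mm9, since only 11.2% of 23031 rows matched by symbol overlapped their GRCm38 position. FPKM are not counts, so limma 3.58.1 (R 4.3.3, trend and robust) was used on log2(FPKM + 1), a scale that understates the change of low genes. Rows had to reach 1 FPKM in 3 or more libraries, and means were fitted for 4 lines over 12 libraries. Tests were two-sided with Benjamini-Hochberg adjustment over 13122 rows, called under 0.05. The fit was checked on simulated data with independent libraries and no difference between the lines of a group. That check does not bear on whether libraries of a line count as replicates. SMC against Non-SMC is the mean of the differences within pairs. Per-library values are given for genes with a line mean of at least 1 FPKM and ranges for the others. Genes outside the families were named at a line mean of at least 5 FPKM and a called log2 difference of at least 2, at most 2 per direction of a list. Rem2 was named outside this rule, because it went the other way from Rrad and Gem. Alternatives were the pseudocount, filter, scaling, replicate block, moderation, each library left out, and the line as the unit. The members and lists were chosen with earlier results of these data known. Of 40 rows that match the symbol pattern, 2 are not reported here.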

Additional observations from a re-analysis of the deposited data

Results flagged for a closer look

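A single library lay far from the other 5 of its group for 6 genes, of 60 groups of 6 libraries examined. In each case the other 5 libraries were listed at 0, so any value above 0 met the rule. A chance rate of 1 in 20 does not apply to such values, or to groups that pool 2 lines. All 6 were values near 0: Cacna1e at 0.00274 FPKM and Cacna2d2 at 0.00889 in Non-SMC#2, Cacna1s at 0.0189 in SMC#2, Cacng3 at 0.0226 in SMC#1, and Cacng1 at 0.0354 and Scn3b at 0.00793 in Non-SMC#1.

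The difference of SMC from Non-SMC was not the same in the 2 pairs for 16 genes, by the interaction term of limma at an adjusted p under 0.05, where 60.6% of all rows passed. On the log2 scale, pair 1 minus pair 2 was 2.78 for Scn3a, 2.35 for Cacna1d, 1.77 for Cacng2, 1.56 for Cacna1a, 1.15 for Scn2a1, 1.09 for Cacna1g and 1.00 for Cacna2d1. It was 0.81 for Cacna2d2, 0.60 for Cacnb4, 0.42 for Scn8a and 0.33 for Cacna2d3. It was -0.29 for Scn9a, -0.91 for Cacna1h, -1.11 for Cacnb1, -1.44 for Cacna1c and -1.75 for Cacng7.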

How the results depend on the processing

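Taking lines as units with the pair in the model, 7 members (7 higher, 0 lower) and 2441 of all genes were called, in place of 19 (16 higher, 3 lower) and 11430, and without the pair 8 (8 higher, 0 lower) and 2756; at an unadjusted p under 0.05 limma also gave 0 lower and 10 higher either way. The related lists had 26 calls either way in place of 53. That setting, the stricter filter, median-ratio scaling and plain moderation were added for these lists after seeing the data. Requiring 1 FPKM in 6 or more libraries, 1 member was called lower in place of 3 and 10 differed between the pairs in place of 16, since fewer were tested, and with no filter 5 were called lower, since more were tested. Leaving out 1 library at a time, the members called ranged from 15 to 19 between groups (12 to 16 higher, 2 to 3 lower), 16 to 21 in pair 1, 16 to 18 in pair 2, 11 to 16 for the difference between pairs, 10 to 16 between the SMC lines and 7 to 10 between the Non-SMC lines. Cacnb3 in pair 1 lost its call without SMC#1 replicate 1 (-0.23), SMC#1 replicate 2 (-0.24), Non-SMC#1 replicate 1 (-0.26) or Non-SMC#1 replicate 3 (-0.25). The difference between the pairs lost its call for Scn9a without SMC#1 replicate 1 or 3, any Non-SMC#1 library, SMC#2 replicate 2 or Non-SMC#2 replicate 2 (adjusted p 0.0575 to 0.0827), and was called for Cacnb3 without Non-SMC#2 replicate 1 (0.34) and for Cacng4 without SMC#2 replicate 2 (0.29). Between the SMC lines, Cacna1c lost its call without SMC#1 replicate 1 (-0.34), SMC#1 replicate 3 (-0.31) or SMC#2 replicate 2 (-0.28), Scn9a without SMC#1 replicate 3 (-0.19), and Cacng4 was called without SMC#2 replicate 2 (0.31). Between the Non-SMC lines, Cacna2d1 lost its call without Non-SMC#1 replicate 1 (-0.27) or 2 (-0.24) or Non-SMC#2 replicate 2 (-0.22), while Cacna1h was called without replicate 2 of either SMC line (-0.18), at a pseudocount of 0.1 (-1.20, limma adjusted p = 2.04e-05) and after quantile normalization (-0.23, 0.0264). Quantile normalization also ended the calls of Cacnb3 in pair 1 (limma adjusted p = 0.136) and of Cacna2d1 between the Non-SMC lines (0.078; 0.0737 with median-ratio scaling). It added calls for Cacna1b between the SMC lines (-0.17) and the Non-SMC lines (0.17), Cacnb4 between the Non-SMC lines (0.21) and Cacna1c between groups (-0.21), which was also called without Non-SMC#2 replicate 1 (-0.16). Scaling moved the median of all genes by -0.17 (quantile) and -0.15 (median-ratio) for the difference between pairs. Deviations from the line means correlated between -0.38 and 0.31 for same-numbered libraries of a pair, and between -0.38 and 0.35 for differently numbered ones. With 3 libraries per line, these values cannot show whether the numbers paired the samples. With the replicate block 19 members were called between groups, and all 126 single results kept their call. Depth limits values near that of a single fragment, the filter and the pseudocount of 1 limit tests of genes under 1 FPKM, and no 0 here shows absence.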
